A study of Mus musculus with 12 samples.

Results

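Interferon regulatory factors (IRFs) are the transcription factors that turn pathogen sensing and interferon signals into changes in gene expression. The 8 members described here are *Irf1*, *Irf2*, *Irf3*, *Irf4*, *Irf5*, *Irf7*, *Irf8* and *Irf9*, taken by gene symbol as the IRF genes expressed in lymphocytes out of 40840 listed genes. All 8 were among the 13570 genes that passed the filter on low counts.

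The values come from RNA-seq of donor OTII cells, whose transgenic receptor makes these CD4+ T cells specific for an OVA peptide, after transfer into WT or Il6-/- recipients. All recipients were sensitized i.n. with 100 µg of house dust mite (HDM) extract plus 5 µg of LPS-free OVA, and the OTII cells were sorted from the mediastinal lymph nodes (mLNs) on Day 3 or Day 5. There were 4 groups, WT Day 3, Il6-/- Day 3, WT Day 5 and Il6-/- Day 5, with 3 replicates in each and 12 libraries in all. The study calls this sensitization HDM LPS, whereas the sample labels do not mention added LPS and give blood as the tissue, and the days of the series are counted from a start that differs from that of the manuscript. The groups differed in *Il6* in the recipients, whereas the donor OTII cells did not differ in genotype, so the *Il6* level of the sorted libraries is no check of their labels. The ages of the mice are not given in the sources used here. No label says that replicates came from separate mice, so p values measure the spread between these samples, which may be technical.

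All IRFs share a DNA-binding domain that recognizes repeats of GAAA, as in the interferon-stimulated response element (ISRE). IRF9 joins STAT proteins to form ISGF3, the complex that carries the type I interferon signal to the nucleus, and IRF7 is itself induced by ISGF3 and amplifies the response. IRF3, IRF5 and IRF7 wait in the cytoplasm until kinases below nucleic acid sensors or Toll-like receptors activate them. IRF1 is induced by interferon γ and activates genes of antigen presentation, and IRF2 binds the same sites and can oppose it. IRF4 and IRF8 are largely confined to immune cells and bind DNA with partners such as PU.1 or BATF-AP-1, and in CD4+ T cells IRF4 rises with T-cell receptor signaling and is needed for several effector fates.

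To show which interferon-response letters lie next to these genes, the 250 bases upstream of each canonical start site were read from GRCm39 with the GENCODE vM39 annotation. They were searched on both strands for an ISRE core (GAAANNGAAA) and for the palindrome bound by STAT dimers (TTCNNNGAA, a γ-activated sequence or GAS). An ISRE core was found in 1 of the 8 regions, that of *Irf2*, and a GAS palindrome in 3, those of *Irf1*, *Irf2* and *Irf8*. Among 19302 upstream regions of the same length, 3.24% held the ISRE core and 7.38% the GAS palindrome. The sequences printed are those of the members with a match, with the matched letters in capitals, and that of *Irf7*, the member with the largest difference between recipients, which had none. For *Irf2* only the 30 bases around its matches are given, and the last 29 bases of the *Irf1* region and the last base of the *Irf8* region also lie in an annotated exon of the gene. So do 10 bases of the *Irf2* region, 72 of the *Irf5* region and all 250 of the *Irf9* region. The lack of a match for *Irf9* thus concerns annotated exon sequence.
Irf1, forward strand, chr11:53660591-53660840: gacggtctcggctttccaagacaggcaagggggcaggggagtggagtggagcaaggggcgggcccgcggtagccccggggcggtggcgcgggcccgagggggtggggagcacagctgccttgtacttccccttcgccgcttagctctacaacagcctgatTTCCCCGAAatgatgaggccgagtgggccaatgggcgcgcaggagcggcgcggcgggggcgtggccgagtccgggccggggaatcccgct
Irf2, forward strand, chr8:47192537-47192566: gtGAAAATGAAAttgacttTTCCGAGAAat
Irf7, reverse strand, chr7:140846399-140846648: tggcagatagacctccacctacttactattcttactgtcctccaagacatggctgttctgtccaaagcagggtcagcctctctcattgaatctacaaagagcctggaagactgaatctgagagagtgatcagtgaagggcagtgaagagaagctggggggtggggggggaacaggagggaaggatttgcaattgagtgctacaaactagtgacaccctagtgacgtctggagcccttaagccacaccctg
Irf8, forward strand, chr8:121462847-121463096: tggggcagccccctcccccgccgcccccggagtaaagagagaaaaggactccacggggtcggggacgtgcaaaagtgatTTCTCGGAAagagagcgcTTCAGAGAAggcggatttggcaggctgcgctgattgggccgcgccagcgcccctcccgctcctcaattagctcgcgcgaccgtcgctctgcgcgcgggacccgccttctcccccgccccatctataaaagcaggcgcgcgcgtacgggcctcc
Counted from the start site, the *Irf1* palindrome spans bases -90 to -82, the *Irf8* palindromes -171 to -163 and -153 to -145, and the *Irf2* ISRE core and palindrome -221 to -212 and -204 to -196. For *Irf7*, the lack of a match concerns these letters in this window alone.

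The gene counts of a library summed to 16125947 to 26111657 reads. Genes received 60.2% to 62.2% of the reads on Day 3 and 52.5% to 56.7% on Day 5. The T-cell identity of the sorted cells was checked against 11 T cell markers, whose summed level was at least 8730 CPM in every library (CPM, read counts relative to the library size after TMM scaling). The lists for other cell types held both absent and well expressed genes. *Clec9a* (dendritic cells) and *Klk1* (plasmacytoid dendritic cells) had no count in any library, and *Ms4a1* (B cells) and *Ncr1* (NK cells) averaged at most 0.104 and 0.013 CPM in a group. In the same lists, group means reached 645 CPM for *Ighm*, 104 for *Cst3*, 74.7 for *Cd8b1*, 69.5 for *Pacsin1*, 40.5 for *Cd74* and 33.1 for *Klrb1c*. Since sorted cells were sequenced in bulk, fewer cells of a type that express a gene and less RNA of it per cell cannot be told apart.

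Compared per kb of canonical transcript, *Irf1* had the highest mean level of the 8 members in every group and *Irf3* the second highest. In WT recipients on Day 3, the order was *Irf1* (51.3 ± 2.61 CPM per kb, SD, n = 3), *Irf3* (48.5 ± 0.098), *Irf9* (34.8 ± 1.94), *Irf7* (32.4 ± 3.06), *Irf4* (26.6 ± 1.36), *Irf2* (20.3 ± 3.22), *Irf8* (10.3 ± 0.586) and *Irf5* (7.31 ± 0.714). The libraries of *Irf1* and *Irf3* overlapped, as did those of *Irf9* and *Irf7*, so neither pair was ordered beyond its spread. In Il6-/- recipients on the same day, *Irf7* was last, at 11.2 ± 2.05 CPM per kb, and overlapped *Irf5* at 11.5 ± 0.28, whereas *Irf4*, next after *Irf1* and *Irf3*, had 32.7 ± 1.06 and *Irf8*, at 23.6 ± 3.86, overlapped *Irf9* at 25.7 ± 1.84. On Day 5, the levels of *Irf1* were 96.7 ± 3.89 in WT and 109 ± 5.27 CPM per kb in Il6-/- recipients. The lowest places on that day were held by *Irf5* (7.43 ± 0.563) and *Irf8* (6.81 ± 1.2) in WT, which overlapped, and by *Irf5* alone (8.97 ± 1.41) in Il6-/- recipients, below *Irf8* (12.7 ± 1.05).

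**Figure D1:**
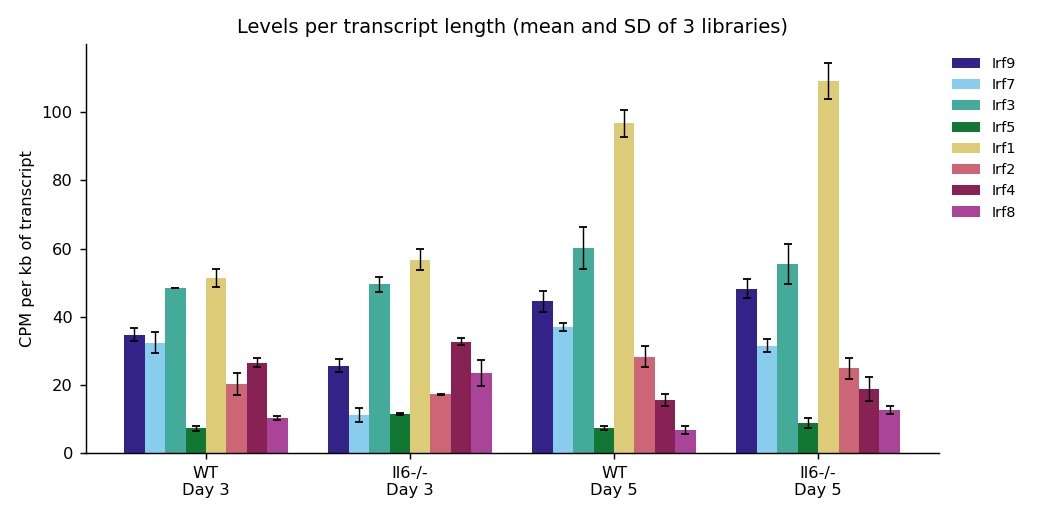
Mean level of the 8 members per kb of canonical transcript (y axis, CPM per kb) in the 4 groups (x axis), with the SD of 3 libraries as error bars. *Irf1* stands highest in each group, at 51.3 to 109 CPM per kb, and the *Irf7* bar of the Il6-/- Day 3 group, at 11.2, is lower than in the other 3 groups.

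To determine which IRF transcripts in primed T cells depended on IL-6 in the recipient, a quasi-likelihood test in edgeR set Il6-/- against WT recipients on each day, with p adjusted over all genes tested (Benjamini-Hochberg, given as FDR). On Day 3, 4 of the 8 members passed an FDR of 0.05: in Il6-/- recipients the primed OTII cells had more *Irf8* and *Irf5* and less *Irf7* and *Irf9*. Of all genes tested, 7.52% were called higher and 6.19% lower on that day. *Irf7* and *Irf8* also passed a limit of at least 2-fold, as did 2.74% of all genes. The libraries of both recipients did not overlap for 6 of the 8 members, against 36.2% of all genes. On Day 5, 1 member was called higher, *Irf8*, and 0 lower, where 1.27% of all genes were called higher and 3.35% lower. At an unadjusted p under 0.05, 3 members passed on Day 5, *Irf1*, *Irf4* and *Irf8*, each of them higher, and DESeq2 and limma-voom called *Irf8* alone. No member reached a 2-fold change on that day (1.14% of all genes), and the libraries of 3 members did not overlap (19.6% of all genes). For 1 gene in 3 libraries against 3, the exact permutation test (two-sided, 20 labelings) cannot give a p below 0.1. The members called on each day were the same with RLE, upper-quartile and no scaling.

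**Figure D2:**
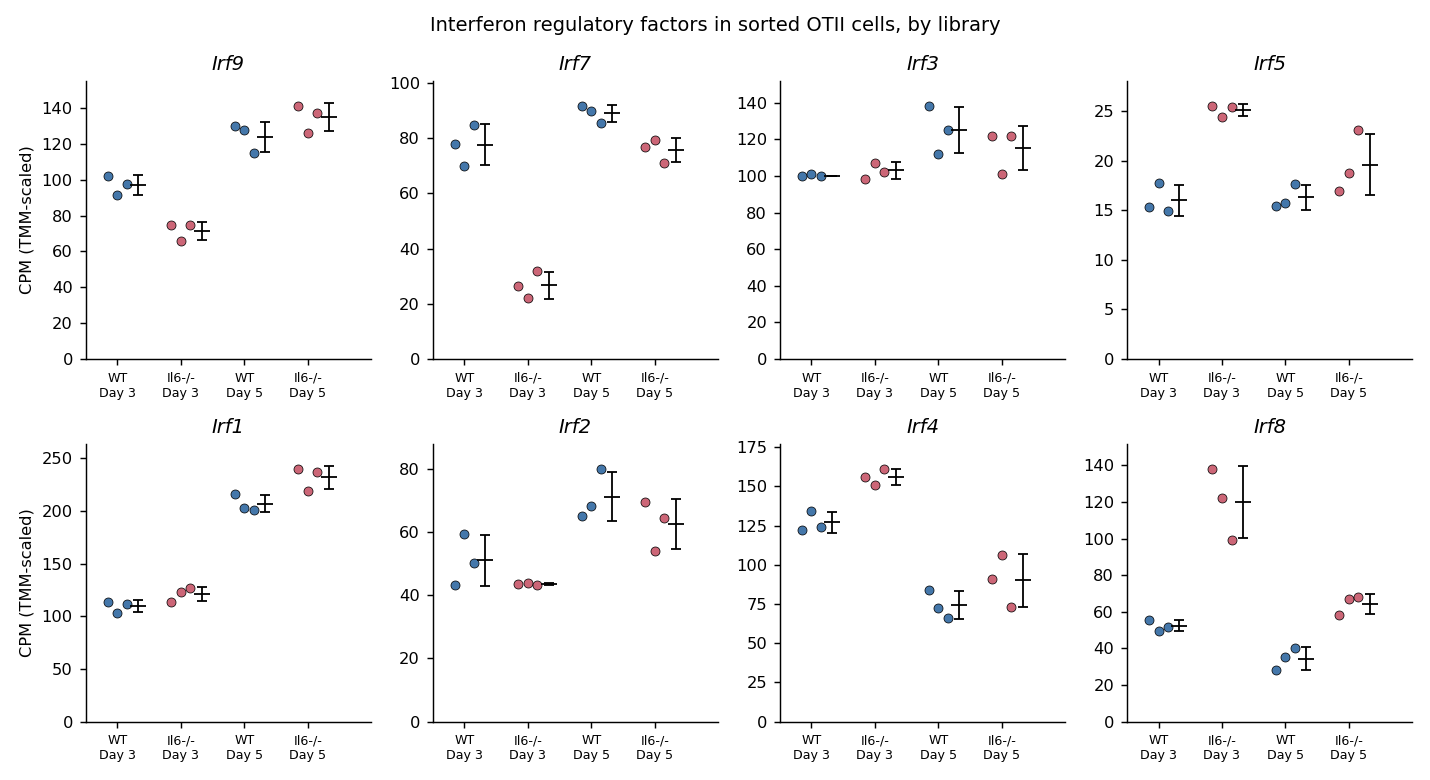
CPM of each member (y axis, TMM-scaled, starting at 0) in each of the 12 libraries (points) by recipient and day (x axis), with the mean and SD of 3 libraries beside them in black. On Day 3 the Il6-/- libraries of *Irf7* (22.0 to 31.8 CPM) lie below and those of *Irf8* (99.2 to 138 CPM) above all WT libraries.

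The members that carry the type I interferon signal are described first. *Irf9* lies on the forward strand of chromosome 14 (chr14:55841028-55847812). On Day 3, *Irf9* had 102, 91.3 and 97.7 CPM in the WT libraries and 74.5, 65.7 and 74.6 CPM in the Il6-/- libraries. On Day 5, the values were 130, 128 and 115 CPM in WT and 141, 126 and 137 CPM in Il6-/- recipients. Each Il6-/- library thus lay below each WT library on Day 3, whereas the groups overlapped on Day 5. The log2 fold change (log2FC, Il6-/- relative to WT) was -0.44 on Day 3 (standard error (SE) 0.08, edgeR FDR = 0.0028), a 1.35-fold lower level, and 0.12 on Day 5 (FDR = 0.48). The change on Day 3 minus that on Day 5, tested as an interaction, was -0.55 (SE 0.12, edgeR FDR = 0.017). That call rested on single libraries, since the FDR was 0.05 without WT Day 3 replicate 3 and 0.06 without Il6-/- Day 3 replicate 2. Exons of *Irf9* overlap those of *Rnf31* over 282 bp, 4.86% of its exon length, and reads were counted without regard to strand. *Rnf31*, a subunit of the linear ubiquitin ligase complex, was at a log2FC of -0.14 (FDR = 0.29) on Day 3.

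*Irf7* lies on the reverse strand of chromosome 7 (chr7:140842619-140846398). In the WT libraries of Day 3 it had 78.1, 70.1 and 84.7 CPM, and in the Il6-/- libraries 26.6, 22.0 and 31.8 CPM. By Day 5, *Irf7* stood at 91.6, 89.8 and 85.7 CPM in WT and at 76.8, 79.5 and 70.9 CPM in Il6-/- recipients. On both days every Il6-/- library was lower than every WT library, but the gap was wide on Day 3 and narrow on Day 5. The log2FC on Day 3 was -1.53 (SE 0.12, edgeR FDR = 6.4e-06), a 2.89-fold lower level, and it lay between -1.67 and -1.41 with each library left out in turn. On Day 5, the log2FC was -0.23 (95% interval -0.47 to 0.01, FDR = 0.27). Between the days the change differed by -1.30 (SE 0.16, FDR = 0.0013), and this call held in 12 of 12 fits that each left out 1 library. The interaction was called for 4.92% of all genes and for 2 of the 8 members, *Irf7* and *Irf9*. Exons of *Irf7* overlap those of *Phrf1* over 63 bp, 1.67% of its exon length. *Phrf1* stood at 121 ± 9.93 CPM in WT against 125 ± 11.6 in Il6-/- recipients on Day 3 (log2FC 0.05, FDR = 0.86), and no difference in *Phrf1* was detected.

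*Stat2*, which encodes a partner of IRF9 in ISGF3, was examined beside it. *Stat2* had 47.3, 43.4 and 43.1 CPM in WT and 30.6, 30.2 and 29.8 CPM in Il6-/- libraries on Day 3 (log2FC -0.56, SE 0.08, edgeR FDR = 0.00049). It was at 46.7 ± 0.325 and 50.3 ± 2.75 CPM on Day 5 (log2FC 0.11, FDR = 0.52), and its difference between the days was -0.67 (FDR = 0.0079). Both *Irf9* and *Stat2* were therefore lower on Day 3.

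The genes that ISGF3 switches on were followed with a list of 20 targets, written from general knowledge. Like the other lists here, it was chosen with earlier results of these data known, so its counts are a description and no independent test. On Day 3, 13 of the 20 were called, each lower in Il6-/- recipients, with a median log2FC of -0.98 against 0.015 over all genes tested. The number called was 6 without Il6-/- Day 3 replicate 2, and 9, 13, 11, 9 and 9 without the other libraries of that day in turn (Il6-/- replicates 1 and 3, then WT replicates 1 to 3). *Rtp4*, which encodes a receptor transporter induced by interferon, fell from 38.9 ± 5.88 to 11.8 ± 2.52 CPM (log2FC -1.71, edgeR FDR = 8.7e-05), and *Xaf1*, a partner of the apoptosis inhibitor XIAP, from 41.6 ± 3.36 to 23.2 ± 4.02 CPM (log2FC -0.84, FDR = 0.00066). On Day 5, 2 targets were lower, *Rtp4* (log2FC -0.72, FDR = 0.047) and the RNA-sensing synthetase gene *Oas1a* (log2FC -0.70, FDR = 0.037), with a median of -0.31 against 0.011 over all genes. Neither Day 5 call was stable, with an FDR of 0.19 for *Rtp4* without WT Day 5 replicate 2 and 0.18 for *Oas1a* without Il6-/- Day 5 replicate 2. Tested between the days, the change differed for 1 target, *Rsad2*, which encodes the antiviral protein viperin (-2.30, FDR = 0.044, or 0.12 without Il6-/- Day 3 replicate 2). With replicate number as a block, 1 target was higher and 6 were lower in that test. Summed over the list, the level was 591 to 661 CPM in WT and 402 to 478 CPM in Il6-/- libraries on Day 3, without overlap, and 596 to 709 and 535 to 631 CPM on Day 5, with overlap.

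**Figure D3:**
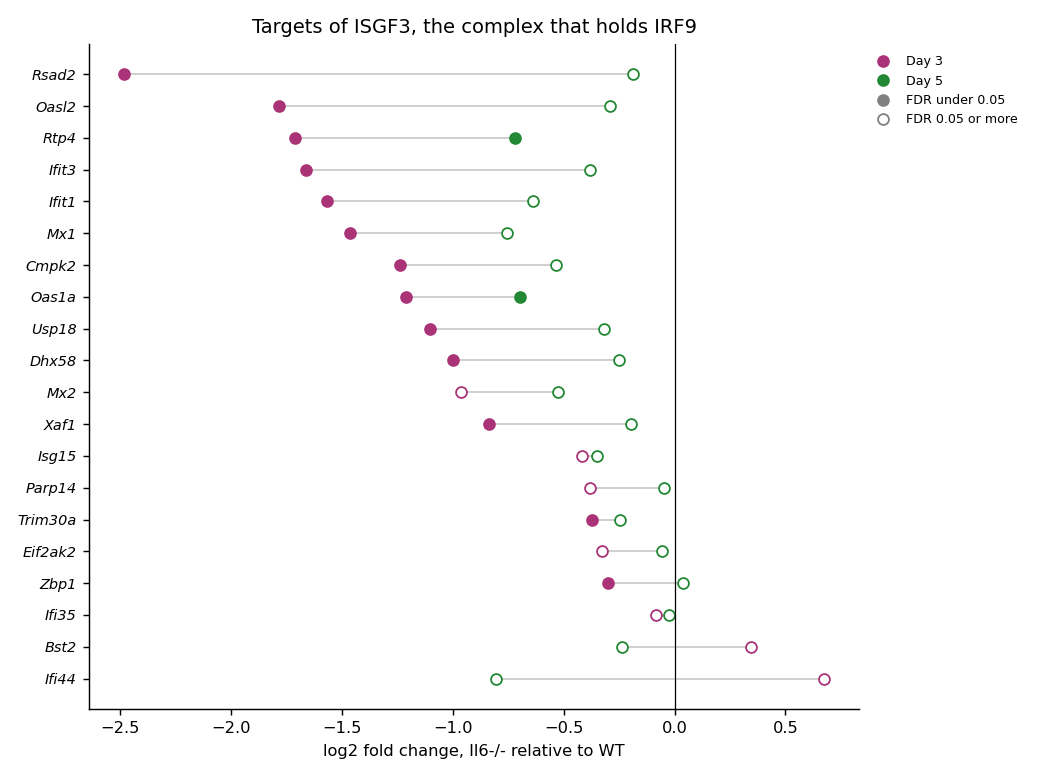
log2 fold change (x axis, Il6-/- relative to WT) of 20 ISGF3 targets (rows) on Day 3 and Day 5, joined by a line, with filled points where the edgeR FDR was under 0.05. On Day 3, 13 points are filled and left of 0, and on Day 5 the 2 filled points are *Rtp4* (-0.72) and *Oas1a* (-0.70).

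Transcripts of the listed type I and type III interferons were nearly absent from the sorted cells. Of 9 interferon genes listed, 8 type I and type III genes had at most 3 counts in any library, and 8 had none at all in the WT Day 3, Il6-/- Day 3 and WT Day 5 groups. A count of 0 allows up to 3 counts in a library, for counting error only. *Ifng*, interferon γ, was the 1 interferon gene tested. It had 4, 11 and 0 counts in WT and 18, 19 and 21 counts in Il6-/- libraries on Day 3 (log2FC 2.05, FDR = 0.053, or 2.19 and FDR = 0.019 with replicate number as a block), and means of 2.25 ± 0.805 and 4.8 ± 1.97 CPM on Day 5 (log2FC 1.09, FDR = 0.24). Among 7 interferon receptor and kinase genes, 3 were called on Day 3, each lower, with a median log2FC of -0.26. *Ifnar2*, a chain of the type I interferon receptor, had the smallest p (118 ± 5.87 CPM in WT against 80.7 ± 3.85 CPM in Il6-/- recipients, log2FC -0.55, FDR = 0.00035). *Jak2*, a kinase of the interferon γ receptor, followed with a log2FC of -0.41 (FDR = 0.015, or 0.074 without Il6-/- Day 3 replicate 1). Without replicate 1 or 2 of that group, 1 of the 7 genes was called. On Day 5, 1 gene was higher, *Tyk2*, a kinase of the type I receptor (log2FC 0.36, FDR = 0.045, or 0.12 without Il6-/- Day 5 replicate 2), and with replicate number as a block 1 was higher and 2 lower.

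The latent factors came next. *Irf3* (chr7:44647033-44652272, forward strand) had 100, 101 and 100 CPM in WT and 98.3, 107 and 102 CPM in Il6-/- libraries on Day 3. On Day 5 it had 138, 112 and 125 CPM in WT and 122, 101 and 122 CPM in Il6-/- libraries. The groups overlapped on both days. The log2FC was 0.03 on Day 3 (95% interval -0.16 to 0.23, FDR = 0.87) and -0.12 on Day 5 (95% interval -0.31 to 0.08, FDR = 0.53), and the Day 3 value turned negative with upper-quartile or no scaling. Exons of *Irf3* overlap *Bcl2l12* over 123 bp, 3.53% of its exon length, and *Scaf1* over 22 bp, neither of which was called between recipients (*Bcl2l12* log2FC -0.05, FDR = 0.85, and *Scaf1* log2FC 0.25, FDR = 0.2 on Day 3).

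*Irf5* (chr6:29526276-29541870, forward strand), better known from myeloid and B cells, was low in all libraries. On Day 3 it had 15.3, 17.8 and 14.9 CPM in WT and 25.5, 24.4 and 25.4 CPM in Il6-/- libraries. The corresponding values on Day 5 were 15.4, 15.7 and 17.7 CPM in WT and 17.0, 18.8 and 23.1 CPM in Il6-/- recipients. On Day 3 the Il6-/- libraries were all higher than the WT libraries, and Il6-/- replicate 1 fell among the WT libraries on Day 5. The log2FC was 0.65 on Day 3 (SE 0.13, edgeR FDR = 0.0035), a 1.57-fold higher level, and 0.27 on Day 5 (95% interval -0.0027 to 0.55, FDR = 0.26). The log2FC on Day 3 minus that on Day 5 was 0.38 (FDR = 0.26), so the change on Day 3 was not shown to exceed that on Day 5. Exons of *Irf5* overlap those of *Tnpo3*, which encodes a nuclear import receptor, over 416 bp or 5.80% of its exon length. For *Tnpo3* the log2FC was 0.19 (FDR = 0.31) on Day 3 and 0.39 (FDR = 0.068) on Day 5.

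Of 16 sensors, adaptors and kinases that act upstream of IRF3, IRF5 and IRF7, 15 were tested, and 2 were called on Day 3, both lower in Il6-/- recipients. They were *Ikbke*, which encodes the IRF kinase IKKε (162 ± 11.3 to 111 ± 3.88 CPM, log2FC -0.55, edgeR FDR = 0.00072), and *Ddx58*, which encodes the RNA sensor RIG-I (30.5 ± 1.79 to 15.4 ± 2.69 CPM, log2FC -0.98, FDR = 0.00074). The median of the list was 0.07, near that of all genes. On Day 5, 1 gene was lower, *Chuk*, which encodes the IKKα kinase (log2FC -0.40, FDR = 0.03, or 0.15 without WT Day 5 replicate 1).

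The activator and its antagonist were not called between recipients on either day. *Irf1* (chr11:53660812-53669200, forward strand) had 114, 103 and 112 CPM in WT and 114, 123 and 127 CPM in Il6-/- libraries on Day 3. On Day 5, it had 216, 203 and 201 CPM in WT and 240, 219 and 237 CPM in Il6-/- libraries. Every Il6-/- library stood above every WT library on both days, by a margin under 1 CPM on Day 3. The log2FC of *Irf1* was 0.15 on Day 3 (95% interval -0.01 to 0.31, FDR = 0.23) and 0.17 on Day 5 (95% interval 0.01 to 0.33, FDR = 0.22). *Irf2* (chr8:47192222-47300501, forward strand) had 43.3, 59.4 and 50.2 CPM in WT and 43.4, 43.9 and 43.3 CPM in Il6-/- libraries on Day 3. Its Day 5 values were 65.2, 68.3 and 79.9 CPM in WT and 69.4, 54.0 and 64.3 CPM in Il6-/- recipients. WT and Il6-/- libraries overlapped on both days. The log2FC of *Irf2* was -0.23 on Day 3 (95% interval -0.49 to 0.03, FDR = 0.26) and -0.18 on Day 5 (95% interval -0.44 to 0.07, FDR = 0.44). The antisense gene *Gm12216* overlaps 13.2% of the *Irf1* exon length, at group means of 0.671 to 3.93 CPM, and *Gm16675* overlaps 1.00% of that of *Irf2* (log2FC -0.81 on Day 3, FDR = 0.062).

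Targets of IRF1 were compared with the factor. Of 14 listed, 13 were tested, and 3 were called on Day 3, each higher in Il6-/- recipients, or 2 higher and 1 lower without scaling. *Gbp2*, an interferon-inducible GTPase gene, rose from 14.4 ± 0.947 to 22.3 ± 0.0362 CPM (log2FC 0.63, edgeR FDR = 0.0007), and *Casp1*, the inflammasome caspase gene, from 17.4 ± 1.24 to 33.3 ± 6.09 CPM (log2FC 0.94, FDR = 0.0011), and *Psmb8*, an immunoproteasome subunit gene, was higher at a log2FC of 0.26 (FDR = 0.02, or 0.087 without WT Day 3 replicate 1). On Day 5, 3 were higher and 1 lower, or 6 and 2 with replicate number as a block. *Gbp2* was higher again (26.7 ± 0.752 to 37.3 ± 2.07 CPM, log2FC 0.48, FDR = 0.0091), *Cd274*, which encodes PD-L1, was higher at a log2FC of 0.42 (FDR = 0.04, or 0.15 without Il6-/- Day 5 replicate 2), the GTPase gene *Gbp3* was higher at 1.00 (FDR = 0.047, or 0.19 without WT Day 5 replicate 1), and *Socs1*, a feedback inhibitor of interferon signaling, was lower (38.1 ± 8.68 to 18.6 ± 1.71 CPM, log2FC -1.03, FDR = 0.0028). *Cd274* and *Gbp3* passed in 5 and 3 of the 12 fits that left out 1 library, and the number higher fell to 1 without Il6-/- Day 3 replicate 1 or 2, Il6-/- Day 5 replicate 2, or WT Day 5 replicate 1 or 2. The medians were 0.121 on Day 3 and 0.096 on Day 5. On Day 3, called genes thus moved down among ISGF3 targets and up among IRF1 targets, a contrast between the lists that was not tested.

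*Irf4* and *Irf8*, the lymphoid members, have no counted gene overlapping their exons. *Irf4* (chr13:30933209-30950959, forward strand) had 122, 134 and 124 CPM in WT and 156, 151 and 161 CPM in Il6-/- libraries on Day 3. On Day 5, *Irf4* was at 83.8, 72.5 and 66.4 CPM in WT and at 90.9, 106 and 73.0 CPM in Il6-/- recipients. The Il6-/- libraries lay above the WT libraries on Day 3 and overlapped them on Day 5. The log2FC was 0.30 on Day 3 (95% interval 0.05 to 0.54, edgeR FDR = 0.11) and 0.28 on Day 5 (95% interval 0.03 to 0.53, FDR = 0.20). The Day 3 value crossed the threshold when the 6 libraries of that day were fitted alone (FDR = 0.0081), with replicate number as a block (FDR = 0.026) and without a low-count filter (FDR = 0.043). In these fits, 22.3%, 19.6% and 7.98% of the genes tested were called on that day.

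*Irf8* (chr8:121463096-121485659, forward strand) was called on both days, as no other member was. On Day 3, it had 55.7, 49.8 and 51.7 CPM in WT and 138, 122 and 99.2 CPM in Il6-/- libraries. The Day 5 libraries held 28.0, 35.5 and 40.1 CPM in WT and 58.2, 66.9 and 67.9 CPM in Il6-/- recipients. Every Il6-/- library exceeded every WT library of its day. The log2FC was 1.19 on Day 3 (SE 0.13, edgeR FDR = 5.9e-05), a 2.29-fold higher level, and 0.90 on Day 5 (SE 0.13, FDR = 0.0025), a 1.86-fold higher level. With each library left out in turn, it lay between 1.08 and 1.31 on Day 3 and between 0.77 and 1.02 on Day 5, and both calls held in 12 of 12 fits. The difference between the days was 0.30 (95% interval -0.10 to 0.70, FDR = 0.41), and none was detected.

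Because *Irf8* is abundant in B cells and dendritic cells, markers of those cells are given beside it. Of 11 B cell markers, 6 were tested, and 1 was higher on Day 3, *Cd22* (0.778 ± 0.533 to 6.61 ± 0.658 CPM), and 1 lower, *Pax5* (0.841 ± 0.0918 to 0.171 ± 0.187 CPM, FDR = 0.039, or 0.11 without Il6-/- Day 3 replicate 3). The summed level of the list was 603 to 685 CPM in WT and 554 to 636 CPM in Il6-/- libraries on Day 3, and 437 to 472 and 486 to 571 CPM on Day 5, almost all of it from *Ighm*. Without *Ighm*, the sum of the other 10 was 6.94 to 10 CPM in WT and 14.4 to 16.3 CPM in Il6-/- libraries on Day 3, and 10.2 to 14 and 13.7 to 17.8 CPM on Day 5. *Ebf1* was at 0 in both Day 3 groups, *Fcrla* at 0 in WT on both days and *Ms4a1* at 0 in Il6-/- recipients on Day 3. Of 16 dendritic and myeloid markers, 12 were tested and 1 was higher on Day 3, *Cd74*, which encodes the invariant chain of MHC class II (15.4 ± 1.65 to 37.7 ± 4.18 CPM). Among the 12 tested, the log2FC on Day 3 was positive for 3 and negative for 9, with a median of -0.246 (0.015 over all genes). Sums over the 16 markers, *Cd74* included, were 120 to 132 CPM in WT and 140 to 149 CPM in Il6-/- libraries on Day 3. On Day 5, they were 160 to 213 and 170 to 185 CPM. *Itgax* and *Clec9a* were at 0 in both Day 3 groups, *Flt3* was at 0 in WT on Day 3, and the class II genes *H2-Aa* and *H2-Ab1* averaged 0.934 and 2.39 CPM in WT on that day, against 0.762 and 2.04 CPM in Il6-/- recipients.
The other lists moved in single genes as well. *Tcf4* was the 1 of 5 tested plasmacytoid dendritic cell markers, out of 8 listed, that was higher on Day 3 (3.16 ± 0.456 to 9.05 ± 1.29 CPM), with sums of 20.3 to 27.0 CPM in WT and 24.8 to 31.5 CPM in Il6-/- libraries, and 74.4 to 82.4 and 52.6 to 82.9 CPM on Day 5. *Klrb1c* was the 1 of 5 tested CD8 T and NK cell markers, out of 8 listed, that was higher on Day 3 (4.82 ± 0.957 to 20.9 ± 4.75 CPM) and it was lower on Day 5 (FDR = 0.05 after rounding, or 0.14 without Il6-/- Day 5 replicate 2). Sums of that list were 63 to 74.6 and 83.7 to 114 CPM on Day 3 and 91.7 to 111 and 86.3 to 101 CPM on Day 5. Of the 11 T cell markers, 3 were lower on Day 3, *Trac*, *Trbc2* and *Cd28*, and 1 on Day 5, *Cd3d* (FDR = 0.037, or 0.19 without Il6-/- Day 5 replicate 2). The part of these markers in the *Irf8* and *Irf5* values was not tested.

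**Figure D4:**
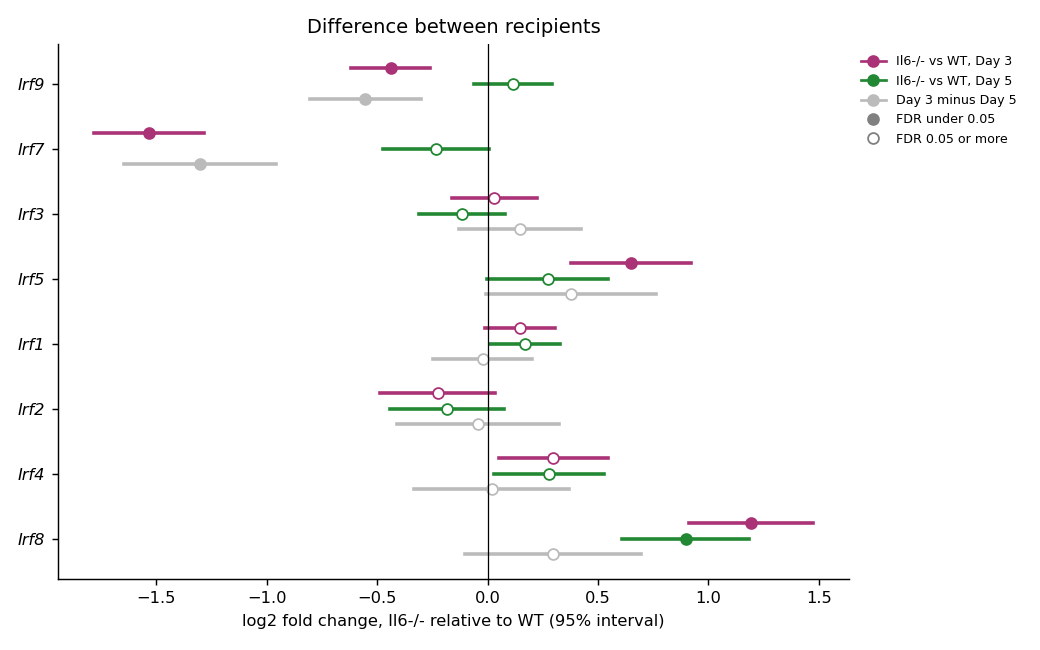
log2 fold change of each member between recipients (x axis, Il6-/- relative to WT, unadjusted 95% interval as bars) on Day 3 and Day 5, and the Day 3 minus Day 5 difference in grey, with filled points at an edgeR FDR under 0.05. *Irf8* is filled on both days (1.19 and 0.90), and *Irf7* and *Irf9* are filled on Day 3 (-1.53 and -0.44) and in the difference (-1.30 and -0.55).

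DNA-binding partners were examined for both lymphoid factors. Of 15 partners and corepressors, 11 were tested, and 2 were called on Day 3, both lower in Il6-/- recipients, *Stat2* and the AP-1 subunit gene *Jun* (72.3 ± 31.4 to 32.7 ± 10.5 CPM, log2FC -1.15, edgeR FDR = 0.03, or 0.14 without WT Day 3 replicate 1). On Day 5, 3 were lower: *Irf2bp1*, which encodes a corepressor that binds IRF2 (27.6 ± 7.92 to 13.0 ± 0.858 CPM, log2FC -1.08, FDR = 0.0079), *Nfatc1* and *Batf*. *Nfatc1* and *Batf* had a log2FC of -0.36 and -0.26 and were called in 3 and 1 of the 12 fits that left out 1 library. The medians of the list were -0.21 on Day 3 and -0.16 on Day 5. *Batf*, the AP-1 partner of IRF4 in T cells, was well expressed (196 ± 5.63 CPM in WT against 170 ± 0.403 CPM in Il6-/- recipients on Day 3, FDR = 0.066), whereas *Spi1* and *Spib*, which encode PU.1 and Spi-B, had 2 to 12 and 0 to 12 counts per library, and *Batf2* and *Batf3* at most 4.

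Genes known to depend on IRF4 in effector CD4+ T cells were called in both directions on Day 3, more of them lower. Of 12 listed, 11 were tested, and 2 were higher and 6 lower in Il6-/- recipients. The median log2FC was -0.966 against 0.015 over all genes tested. With 1 library left out, 0 to 2 were higher and 6 lower. *Gata3*, the Th2 regulator, had 169 ± 1.28 and 214 ± 15.6 CPM (log2FC 0.34, edgeR FDR = 0.023, or 0.092 without Il6-/- Day 3 replicate 3), and *Il10* had 0.116 ± 0.0719 and 0.569 ± 0.23 CPM (FDR = 0.032, or 0.14 without Il6-/- Day 3 replicate 1). Among the lower genes were *Icos*, a costimulatory receptor (618 ± 25.3 to 301 ± 28.7 CPM, log2FC -1.04, FDR = 9.6e-06), *Bcl6*, *Il21* and *Maf*, which act in Tfh cells, and the inhibitory receptor gene *Tigit*. On Day 5, *Gata3* alone was higher (log2FC 0.35, FDR = 0.038, or 0.15 without WT Day 5 replicate 1). Between the days the change differed for 4 of them, *Bcl6*, *Il21*, *Icos* and *Tigit*, or 6 with replicate number as a block.

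The members were also followed over time. From Day 3 to Day 5, 4 members rose and 2 fell in WT recipients, where 29.5% of all genes were called higher and 27.1% lower, and 4 rose and 3 fell in Il6-/- recipients, where 30.4% were called higher and 30.1% lower. The libraries of the days did not overlap for 7 of the 8 members in WT and 7 in Il6-/- recipients, against 63.3% and 65.8% of all genes, so changes with time were common throughout the transcriptome. With upper-quartile scaling the median log2FC of all genes rose by 0.196 in WT and 0.228 in Il6-/- recipients, and without scaling by 0.151 in the latter, so the changes hold relative to the median of all genes (0.091 and 0.087). The share of reads on genes differed between the days as given above, and its part in these changes was not tested. These comparisons share their libraries with the comparisons of recipients, so their values are given side by side only.

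*Irf1* rose by a log2FC of 0.91 in WT (SE 0.08, edgeR FDR = 1.3e-07) and 0.94 in Il6-/- recipients (FDR = 7.8e-08), a 1.88-fold and a 1.91-fold increase, with no overlap of the days. *Irf2* rose by 0.48 (FDR = 0.0034) and 0.52 (FDR = 0.0018). The antagonist therefore rose along with the activator in both recipients. *Irf9* rose by 0.36 in WT (FDR = 0.0019) and by 0.91 in Il6-/- recipients (FDR = 2.9e-07). *Irf7* rose in Il6-/- recipients, from 26.8 ± 4.92 to 75.7 ± 4.35 CPM (log2FC 1.50, FDR = 6.4e-08), and its log2FC in WT was 0.20 (95% interval -0.04 to 0.44, FDR = 0.15, or 0.0058 with upper-quartile scaling). The difference of these changes is the interaction given above. *Irf3* rose in WT (0.31, FDR = 0.0085, or 0.051 without WT Day 5 replicate 1), and its log2FC in Il6-/- recipients was 0.17 (FDR = 0.13, or 0.018 without Il6-/- Day 5 replicate 2, 0.0026 with upper-quartile scaling and 0.0063 without scaling).

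The lymphoid members went down. *Irf4* fell in WT (log2FC -0.77, FDR = 5e-05) and in Il6-/- recipients (-0.79, FDR = 3.1e-05), and *Irf8* fell in both as well (-0.60, FDR = 0.0014, and -0.90, FDR = 2.9e-05). No member other than *Irf4* and *Irf8* fell in both recipients. *Irf5* fell in Il6-/- recipients (-0.35, FDR = 0.025), but its FDR was 0.062 and 0.058 without Il6-/- Day 3 replicates 1 and 3, 0.12 and 0.09 without Il6-/- Day 5 replicates 1 and 2, 0.43 with upper-quartile scaling and 0.19 without scaling. In WT, its log2FC was 0.02 (FDR = 0.89).

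**Figure D5:**
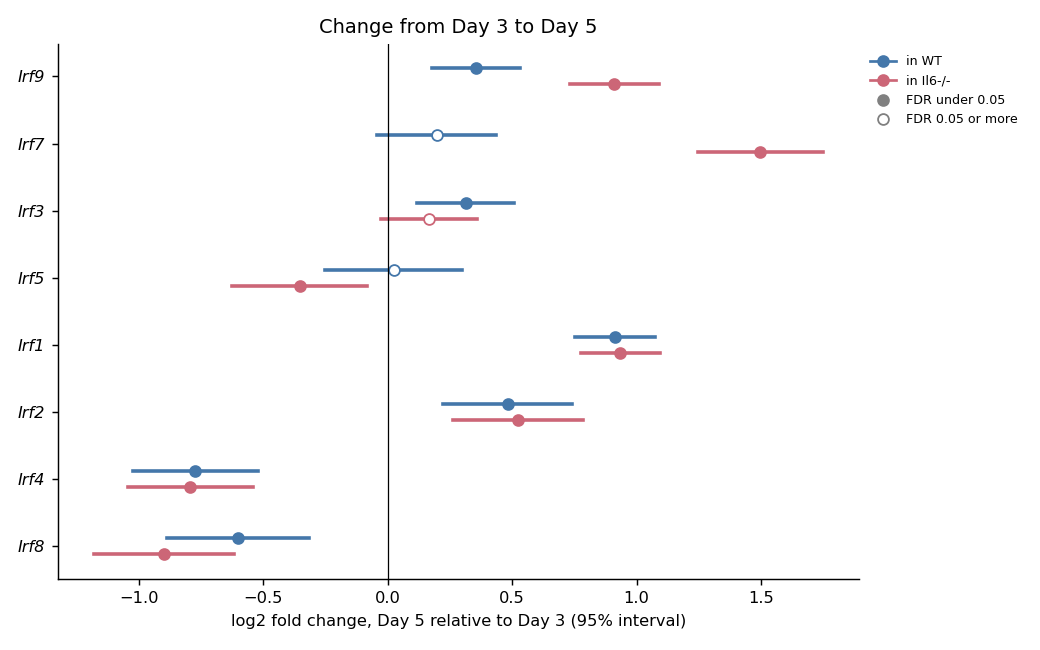
log2 fold change of each member from Day 3 to Day 5 (x axis, unadjusted 95% interval as bars) in WT and Il6-/- recipients, with filled points at an edgeR FDR under 0.05. *Irf1*, *Irf2* and *Irf9* lie right of 0 and *Irf4* and *Irf8* left of 0 in both recipients, and *Irf7* is at 0.20 in WT and 1.50 in Il6-/- recipients.

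Target lists were also compared between the days. Of the 13 IRF1 targets tested, 10 were called in WT and 10 in Il6-/- recipients, each higher on Day 5, with medians of 0.66 and 0.67. In WT, *Nlrc5*, the activator of MHC class I genes, rose from 83.6 ± 2.38 to 175 ± 15.1 CPM and *B2m*, the light chain of MHC class I, from 1670 ± 121 to 4160 ± 567 CPM, both chosen after their values were seen. Markers of cell types moved over the same days. In WT and Il6-/- recipients, 10 and 9 of the 11 T cell markers were higher on Day 5 (medians 0.47 and 0.576). Of 12 tested dendritic and myeloid markers, 4 and 5 were higher (medians 1.016 and 0.905), and 1 and 0 lower. Of 6 B cell markers, 2 and 2 were higher and 1 and 0 lower (medians 0.964 and -0.068). Of 5 plasmacytoid dendritic cell markers, 3 and 2 were higher and 0 and 2 lower (medians 0.781 and 0.731). Of 5 CD8 T and NK cell markers, 2 and 2 were higher and 1 and 1 lower (medians 1.456 and 0.063). The part of these markers in the changes of the targets was not tested. Of the 20 ISGF3 targets, 2 rose and 1 fell in WT (median 0.135), and 10 rose and 2 fell in Il6-/- recipients (median 0.587). With upper-quartile scaling, 5 rose and 1 fell in WT and 15 rose and 1 fell in Il6-/- recipients. *Stat2* rose in Il6-/- recipients (0.74, FDR = 2.2e-06), with a log2FC of 0.06 in WT (FDR = 0.52). *Ifng* rose from 0.233 ± 0.28 to 2.25 ± 0.805 CPM in WT (FDR = 0.00047) and from 0.984 ± 0.0301 to 4.8 ± 1.97 CPM in Il6-/- recipients (FDR = 0.0017). Of the 11 IRF4-dependent genes tested, 6 rose and 2 fell in WT and 8 rose and 2 fell in Il6-/- recipients, with *Prdm1* among the fallers in both.

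Finally, the genes whose course over the 12 libraries was most like that of each member were found by the mean absolute difference of log2 CPM, each gene centered on its own mean, among 11550 genes. For *Irf7* they were *Gramd4* (0.151), *S1pr1* (0.161) and *Susd3* (0.18), against a mean absolute deviation of 0.6 for *Irf7* itself. For *Irf8* they were *Bcl2l1* (0.142), *Swap70* (0.194) and *Maged2* (0.196), against 0.532. *Irf9* had *Pitpnm1* (0.0747), *Akap13* (0.0757) and the ISGF3 target *Zbp1* (0.0768), against 0.317. *Irf1* was nearest to *Psen2* (0.0668), *Tox* and *Traf1*, and *Irf4* to *Opa1* (0.0729), *Api5* and *Rrn3*. The remaining members moved less, and nearest to them were *Rnf44*, *Syf2* and *Ubald1* for *Irf2*, *U2af1l4*, *Selenok* and *Jtb* for *Irf3*, and *Prkca*, *Syngr2* and *Dph1* for *Irf5*. The libraries share their depth and day, so this likeness is a description only.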

How the data were processed

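Donor OTII cells in 12 samples were profiled by ultra-low input poly(A) RNA-seq and sequenced single-end to 50 bp. Before depositing counts, the authors used Trim Galore 0.4.4 for trimming, STAR 2.5.2a for alignment to GRCm39, and HTSeq 0.6.1p1 for counting without regard to strand, per the paper's methods and the submitters' processing notes. The values used are the raw read counts deposited for each library, 16125947 to 26111657 per library. A deposited table of log2 CPM was not used.

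Samples were grouped by the genotype and day in their labels. Genes were kept with filterByExpr on the 4 groups, libraries were scaled by TMM, and a single edgeR 4.0.16 quasi-likelihood model (R 4.3.3, glmQLFit and glmQLFTest) with 1 coefficient per group was fitted to the 12 libraries; the median biological variation (BCV) was 0.132. P values were adjusted over 13570 genes by Benjamini-Hochberg (FDR), with 0.05 as the threshold. In counts simulated for Day 3 over 13223 genes, 88% of 2-fold and 98% of 4-fold changes were recovered. CPM are given as mean ± SD of 3 libraries, and log2 CPM with a prior count of 2 served for likeness, over genes with a mean of at least 1 CPM. Positions, lengths, exon overlaps and upstream sequences came from GENCODE vM39 on GRCm39.

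On Day 5, same-numbered WT and Il6-/- libraries deviated together from their group means (correlations 0.129 to 0.243, above 0.1 in all 3 pairs). Their numbers, which come from the sample titles, were taken to pair them in an alternative fit only, and the main model did not use the numbers. A fit with replicate number within day as a block was run as an alternative, beside DESeq2 1.42.0, limma-voom (limma 3.58.1), scaling by RLE, by upper quartile or not at all, a minimum of 1 CPM in 3 or more libraries, every gene kept, the compared groups alone, a 2-fold limit, and each library left out in turn.

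The named genes follow a rule: all 8 members, genes whose exons overlap a member's, from each gene list the 2 called genes with the smallest p per direction and comparison of recipients, marker genes at 0, and the 3 genes most like each member. Other genes, among them the remaining called genes of a list, and the untested partners, were chosen after their values were seen. The members and all 13 lists were chosen with earlier results of these data known. The B cell sum without *Ighm* and the calls of list genes with a library left out were added after seeing the data. Some genes covered by the rule are not reported here.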

Additional observations from a re-analysis of the deposited data

Results flagged for a closer look

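The change between recipients differed between Day 3 and Day 5 for *Irf7* and *Irf9*, each by a test of the difference itself. For *Irf7*, the log2FC on Day 3 minus that on Day 5 was -1.30 (edgeR interaction, FDR = 0.0013), and it was below 0 in 12 of 12 fits that each left out 1 library. For *Irf9*, the difference was -0.55 (FDR = 0.017), and it failed the threshold without WT Day 3 replicate 3 and without Il6-/- Day 3 replicate 2.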

How the results depend on the processing

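With a 2-fold limit added to the FDR, 2 members instead of 4 were called between recipients on Day 3, 0 instead of 1 on Day 5, 1 instead of 2 in the interaction, 0 instead of 6 over time in WT and 1 instead of 7 over time in Il6-/- recipients. With 1 library left out, the interaction was called for 1 to 2 members. The other counts stayed within 1.5 times under the alternatives run. Directions turned only for values that were not called. *Irf3* on Day 3 was -0.0076 with upper-quartile and -0.0238 with no scaling, and -0.0042 to 0.0618 with 1 library left out. The *Irf4* interaction was -0.0042 with RLE, -0.0103 with upper-quartile, -0.0819 with no scaling and -0.0048 with DESeq2, and -0.1122 to 0.0942 with 1 library left out. *Irf5* over time in WT was -0.0087 with RLE, -0.0434 without a filter, -0.0137 with DESeq2 and -0.0043 with the groups alone, and -0.0434 to 0.1013 with 1 library left out. The *Irf1* and *Irf2* interactions ranged from -0.1224 to 0.0205 and from -0.1978 to 0.0831 with 1 library left out. The cause was not tested.

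With replicate number as a block, 5 members were called on Day 3, *Irf4* among them (log2FC 0.30, FDR = 0.026), 1 on Day 5 and 2 in the interaction, and the block lost no call of a member. Calls were more common throughout in that fit, at 19.6% of all genes on Day 3, 11.7% on Day 5 and 11.5% in the interaction. Same-numbered Day 3 libraries correlated weakly (0.0325 to 0.0599), although over both days 6 of 6 libraries matched their own number best. Whether the Day 3 libraries were paired is not known. No blocked fit of the time comparisons was made, because the block lies within a day. Depth limits the low genes: at 15.3 CPM *Irf5* rests on 392 counts, while the 8 type I and type III interferon genes are at or under the floor of 3 counts and *Spi1* and *Spib* at most at 12.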
